A study of Mus musculus with 6 samples.

Results

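The genes described here are type I interferon stimulated genes, measured by RNA sequencing of CD3+ T cells isolated from mouse spleen after haematopoietic stem cell transplantation (HSCT). The rule named 10 genes. The deposited table holds 7 of them among its 8468 genes, namely Oasl1, Ifi44, Bst2, Irf7, Zbp1, Ifih1 and Xaf1, and all 7 were tested. Isg15, Usp18 and Rtp4 are not analysed here. The allo-HSCT group had 3 libraries from Balb/c hosts given C57BL/6 donor cells, and the syn-HSCT group had 3 libraries from Balb/c hosts given Balb/c donor cells. The host strain was thus shared by both groups, while the donor strain changed with the type of transplant, so strain and transplant cannot be told apart. The sources used here do not give the time after transplantation, the conditioning of the hosts, or the age and sex of the mice. Nothing in the labels ties a library to an animal of its own. The p-values therefore cover the spread between libraries, which may be technical.

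Type I interferons are cytokines made when a cell senses foreign or misplaced nucleic acid. They bind a receptor of the subunits Ifnar1 and Ifnar2, whose kinases Jak1 and Tyk2 pass the signal to transcription factors that join Irf9 and switch on a large set of target genes. The targets include the sensors themselves, factors such as Irf7 that raise interferon output further, and effectors that block steps of viral growth. In T cells the same signal shapes survival and division, and many of the targets also respond to interferon gamma.

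In allo-HSCT 3 members fell and 4 rose. Oasl1, Ifi44 and Bst2 were 2.22-fold, 1.88-fold and 1.80-fold lower than in syn-HSCT. Zbp1, Ifih1, Xaf1 and Irf7 were 1.52-fold, 1.35-fold, 1.19-fold and 1.16-fold higher. By limma, with Benjamini-Hochberg adjustment over all tested genes of the table, 4 members passed an adjusted p of 0.05 as higher and 3 as lower. In bulk RNA, fewer cells of a type and less RNA per cell cannot be told apart. Of all 5460 tested genes, 47.9% passed as higher, 45.8% as lower and 93.7% in either direction, so passing the test does not set these genes apart. The values of the 2 groups did not overlap in 6 of the 7 members, and in 91% of all tested genes. The share of tested genes with a log2 fold change at or below the member's was 8.64% for Oasl1, 10.7% for Ifi44 and 11.2% for Bst2. It was 51.4% for Irf7, 54.4% for Xaf1, 74.4% for Ifih1 and 87.7% for Zbp1. Irf7 and Xaf1 thus lay near the middle of the table, but that middle borders a range of small differences absent from it. Genes with small differences are missing from the table. None of 4825 genes with a mean of over 100 reads had a log2 ratio of group means between -0.37 and 0.21. Irf7 and Xaf1 lay just above that range, among the smaller rises that the table holds. Presence in the table thus went with a difference between these same groups. The adjusted p-values are therefore lenient, and passing is not separate evidence that a member differs.

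Of the 7 members, 6 matched a promoter in the RefSeq table (GRCm38.p6), which runs from 250 bases before to 50 bases after the gene start. The motifs searched on both strands were the interferon stimulated response element (ISRE, here GAAA, any 2 bases and GAAA again), the gamma activated site (GAS, TTCNNNGAA) and the core that interferon regulatory factors bind (IRF core, AANNGAAA). The IRF core overlaps the ISRE and was added after the first searches were seen. Of 32851 promoters, 3.44% held the ISRE, 8.3% the GAS and 23.9% the IRF core. The stretches below are shown because they hold matches in members that fell (Bst2, Ifi44 and Oasl1) and in members that rose (Xaf1 and Ifih1). They are written 5′ to 3′ along the gene, and capitals mark every ISRE match in Bst2 and Ifih1 and every IRF core match in the others, on either strand.
Bst2 (chr8:71537563-71537632, minus strand, ISRE): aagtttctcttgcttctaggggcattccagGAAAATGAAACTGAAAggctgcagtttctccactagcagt
Ifi44 (chr3:151749911-151749990, minus strand, IRF core): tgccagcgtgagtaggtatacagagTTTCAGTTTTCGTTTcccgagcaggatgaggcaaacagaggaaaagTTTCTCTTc
Oasl1 (chr5:114923055-114923134, plus strand, IRF core): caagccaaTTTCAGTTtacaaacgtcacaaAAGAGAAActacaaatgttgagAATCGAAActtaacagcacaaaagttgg
Xaf1 (chr11:72301569-72301628, plus strand, IRF core): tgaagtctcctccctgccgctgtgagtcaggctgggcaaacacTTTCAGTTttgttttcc
Ifih1 (chr2:62646206-62646235, minus strand, ISRE): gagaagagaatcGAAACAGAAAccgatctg

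The first 4 stretches lie before the gene start, and that of Ifih1 lies just after it. Bst2 held a pair of overlapping ISRE matches, the first beginning 130 bases before its start, and a GAS match beginning 136 bases before it. The Ifih1 match began at base 33 after the start. Ifi44, Oasl1 and Xaf1 held IRF core matches without an ISRE match, one of those in Xaf1 lying outside its printed stretch, at base 12 after the start, and the window of Irf7 held none of the 3 motifs. Motif matches were thus present in members of both directions.

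**Figure D1:**
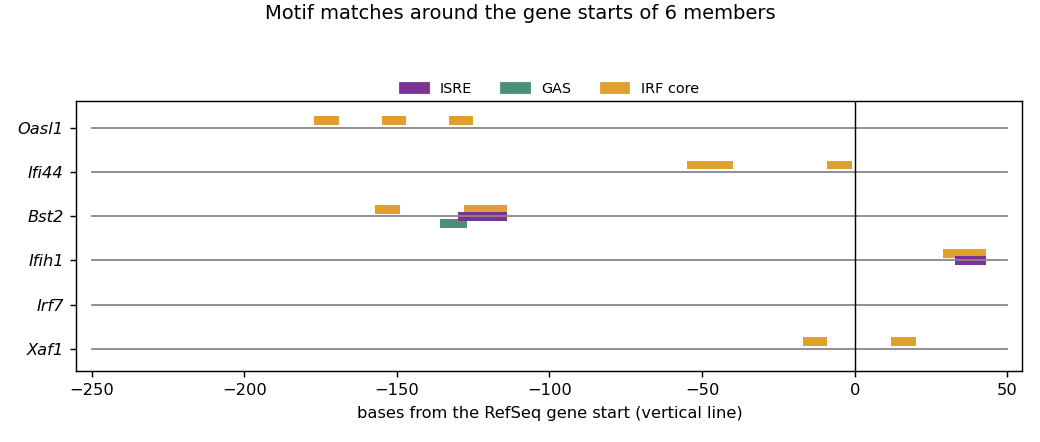
Positions of ISRE, GAS and IRF core matches on either strand, in bases from the RefSeq gene start, for the 6 members with a promoter. Each row is a gene and each coloured box a match; boxes are present in 5 rows, with none in Irf7.

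Zbp1 and Ifih1 are sensors. Zbp1 binds left-handed Z-form nucleic acid and can start inflammatory cell death. Its level was 65.8, 66.6 and 68.9 FPKM (reads scaled by gene length and library total) in allo-HSCT replicates 1 to 3, against 43.0, 44.3 and 44.6 FPKM in syn-HSCT replicates 1 to 3. Every allo-HSCT library lay above every syn-HSCT library, and the spread within each group was small beside the gap. Zbp1 averaged 67.1 ± 1.63 FPKM in allo-HSCT and 44.0 ± 0.884 FPKM in syn-HSCT (SD, n = 3 each; log2 fold change 0.60, SE 0.0679, limma adjusted p = 3.41e-05). It rested on 2404 to 2468 reads per library in allo-HSCT and 1510 to 1680 in syn-HSCT.

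Ifih1 encodes MDA5, a helicase that detects long double-stranded RNA. It stood at 11.6, 12.1 and 11.8 FPKM in allo-HSCT replicates 1 to 3, against 8.69, 8.60 and 9.12 FPKM in syn-HSCT replicates 1 to 3. The groups did not overlap, and the difference was about 3 FPKM on a lower level than that of Zbp1. The means were 11.9 ± 0.253 FPKM in allo-HSCT and 8.80 ± 0.280 FPKM in syn-HSCT (SD, n = 3 each; log2 fold change 0.39, SE 0.0710, limma adjusted p = 6.53e-04).

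Irf7 is the transcription factor that drives the main wave of interferon alpha genes. It measured 45.8, 53.8 and 53.7 FPKM in allo-HSCT replicates 1 to 3, against 40.6, 44.3 and 47.2 FPKM in syn-HSCT replicates 1 to 3. The groups overlapped, since allo-HSCT replicate 1 lay below syn-HSCT replicate 3. Irf7 averaged 51.1 ± 4.59 FPKM in allo-HSCT and 44.1 ± 3.29 FPKM in syn-HSCT (SD, n = 3 each; log2 fold change 0.21, SE 0.0906, limma adjusted p = 0.0475). This call sat at the threshold and was lost without allo-HSCT replicate 2 (limma adjusted p = 0.138), allo-HSCT replicate 3 (0.150), syn-HSCT replicate 1 (0.181) or syn-HSCT replicate 2 (0.102). With the trend of values on gene length removed from each library, the log2 fold change was 0.40.

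Oasl1 belongs to the oligoadenylate synthetase family but lacks the synthetase activity, and in mouse cells it is known to hold back translation of the Irf7 message. Its level was 3.03, 3.66 and 3.49 FPKM in allo-HSCT replicates 1 to 3, against 7.81, 7.46 and 7.29 FPKM in syn-HSCT replicates 1 to 3. All 3 allo-HSCT libraries lay at or under 3.66 FPKM and all 3 syn-HSCT libraries at or over 7.29 FPKM. Oasl1 averaged 3.39 ± 0.325 FPKM in allo-HSCT and 7.52 ± 0.266 FPKM in syn-HSCT (SD, n = 3 each; log2 fold change -0.96, SE 0.0829, limma adjusted p = 5.34e-06). It was the member with the lowest level, and it rested on 116 to 142 reads per library in allo-HSCT and 258 to 296 in syn-HSCT.

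Ifi44 encodes an interferon induced cytoplasmic protein whose part in antiviral defence is less well defined. It stood at 10.4, 7.93 and 8.50 FPKM in allo-HSCT replicates 1 to 3, against 16.8, 17.9 and 15.9 FPKM in syn-HSCT replicates 1 to 3. The groups did not overlap, and allo-HSCT replicate 1 was the highest of its group. The means were 8.94 ± 1.29 FPKM in allo-HSCT and 16.8 ± 0.994 FPKM in syn-HSCT (SD, n = 3 each; log2 fold change -0.85, SE 0.10, limma adjusted p = 4.45e-05).

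Bst2 encodes tetherin, a membrane protein that holds budding virus particles on the cell surface and that also marks plasmacytoid dendritic cells and plasma cells. It measured 56.3, 54.6 and 56.99 FPKM in allo-HSCT replicates 1 to 3, against 96.6, 97.7 and 107 FPKM in syn-HSCT replicates 1 to 3. The 3 allo-HSCT values were nearly alike and lay far below the lowest syn-HSCT value. Bst2 averaged 56.0 ± 1.24 FPKM in allo-HSCT and 100.4 ± 5.75 FPKM in syn-HSCT (SD, n = 3 each; log2 fold change -0.83, SE 0.0736, limma adjusted p = 6.18e-06). It has the shortest recovered length of the members, 808 bases, and with the gene length trend removed its log2 fold change was -0.43 (limma adjusted p = 5.47e-04).

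Xaf1 is known from human cells as an antagonist of the apoptosis inhibitor XIAP. It stood at 13.2, 11.8 and 13.3 FPKM in allo-HSCT replicates 1 to 3, against 10.7, 10.8 and 10.7 FPKM in syn-HSCT replicates 1 to 3. The groups did not overlap, and the lowest allo-HSCT library lay about 1 FPKM above the highest syn-HSCT library. The means were 12.8 ± 0.833 FPKM in allo-HSCT and 10.8 ± 0.0285 FPKM in syn-HSCT (SD, n = 3 each; log2 fold change 0.23, SE 0.0756, limma adjusted p = 0.0163). The call was lost without allo-HSCT replicate 3 (limma adjusted p = 0.0711) or syn-HSCT replicate 2 (0.0531).

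**Figure D2:**
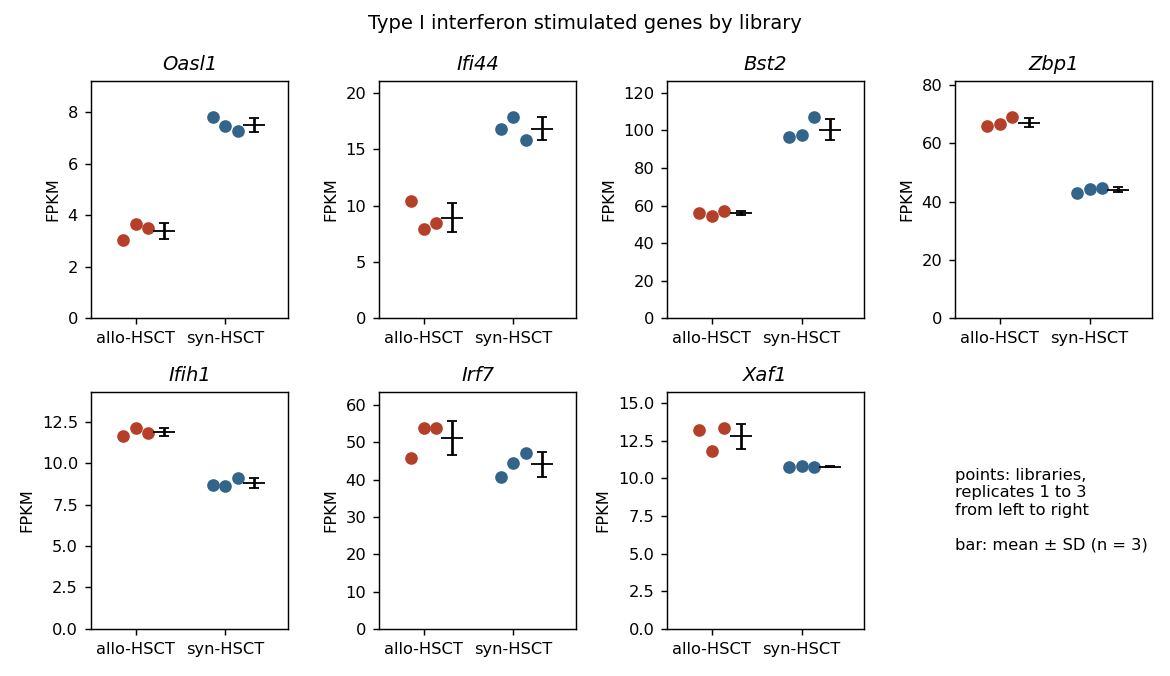
FPKM of the 7 members in each library, with replicates 1 to 3 from left to right and the mean ± SD (n = 3) beside them; each vertical axis starts at 0. Oasl1, Ifi44 and Bst2 sit lower in allo-HSCT, Zbp1, Ifih1 and Xaf1 sit higher without overlap, and the Irf7 groups overlap.

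FPKM is scaled by length, so the members can be ordered by level. The unit was inferred and the recovered lengths match no transcript of the annotation used here, so the order of different genes is approximate. In allo-HSCT the order from high to low was Zbp1, Bst2, Irf7, Xaf1, Ifih1, Ifi44 and Oasl1. Only the neighbours Xaf1 and Ifih1 overlapped in their library values. In syn-HSCT it was Bst2, Irf7, Zbp1, Ifi44, Xaf1, Ifih1 and Oasl1, and only Irf7 and Zbp1 overlapped. Bst2 led in syn-HSCT and came after Zbp1 in allo-HSCT, while Ifi44 stood above Xaf1 and Ifih1 in syn-HSCT and below both in allo-HSCT.

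Within allo-HSCT the members did not move together from library to library. On the log2(FPKM + 1) scale, replicate 1 lay above the mean of replicates 2 and 3 by 0.31 in Ifi44 and differed from it by -0.23 in Irf7 and -0.18 in Oasl1. For the other 4 members the difference was between -0.042 and 0.064. It lay above that mean in 6 of 7 tested IFIT and IFITM genes and in 14 of 16 tested Trim and IFI200 genes. It did so in 0 of 3 receptor and signal genes, 0 of 2 feedback inhibitors, 1 of 5 interferon regulatory factors, 2 of 6 ISG15 and PARP genes, and 5 of 10 sensors and 5 of 10 OAS and RNA decay genes. For other effectors the count was 13 of 17, and for all tested genes 2545 of 5460. Without it, the count of members called stayed at 4 higher and 3 lower.

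The wider pathway was divided as well. The 10 lists of ligands, receptors, regulators and effectors named 130 gene symbols, some of them older and newer symbols of the same gene. Of the symbols, 79 are in the table and 76 were tested. Of the 76, 51 rose, 23 fell and 2 did not pass. The median log2 fold change was 0.32, beside 0.20 over all tested genes. Of all tested genes 47.9% passed as higher, 45.8% as lower and 93.7% in either direction. These shares are the background for the count of each pathway list below as well. Among the 51 were 5 genes that reached 1 FPKM in the allo-HSCT libraries alone and so could enter the test only as higher. Without them 46 rose. Leaving out the 7 members, 47 of 69 rose and 20 fell. The lists were chosen with results of these data known, and the table lacks genes with small differences, so the counts describe only these tested genes.

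Among ligands, Ifnb1 was the only 1 of 9 in the table and was not tested, with 0 reads in each allo-HSCT library and 0 to 6 reads in syn-HSCT libraries. Of the receptor and its signal chain, 3 of 7 genes were tested. Ifnar2, the receptor subunit that carries most of the signalling tail, fell to 10.9 ± 0.364 FPKM in allo-HSCT, against 23.3 ± 0.242 FPKM in syn-HSCT (SD, n = 3 each; log2 fold change -1.03, limma adjusted p = 9.67e-07). The kinase gene Jak1, also used by interferon gamma, rose 1.37-fold. Among 5 tested interferon regulatory factor genes, Irf7, Irf2 (1.29-fold) and Irf4 (1.37-fold) rose. Irf2 no longer passed with the gene length trend removed (log2 fold change 0.14, limma adjusted p = 0.129). Irf5 and Irf8, which are prominent in myeloid and dendritic cells, were 2.11-fold and 1.99-fold lower.

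Of 10 tested sensor and adaptor genes, 7 rose and 3 fell. Alongside Zbp1 and Ifih1, the RNA sensor gene Ddx58 (RIG-I) rose 1.38-fold to 27.6 ± 1.60 FPKM in allo-HSCT, against 20.02 ± 0.625 FPKM in syn-HSCT (SD, n = 3 each). Tlr3, which senses double-stranded RNA in endosomes, rose 2.34-fold, on 93 to 100 reads per library in allo-HSCT and 27 to 52 in syn-HSCT. It met the filter of 1 FPKM only through allo-HSCT. The 3 that fell were Unc93b1, a chaperone of the endosomal Toll-like receptors (2.49-fold), the DNA sensor gene Cgas (1.91-fold) and the RNA sensor gene Tlr7 (1.30-fold). The Tlr7 groups overlapped (limma adjusted p = 0.0345), and its call was lost in 8 of 15 alternatives that tested it, among them those without allo-HSCT replicate 2 (0.108), allo-HSCT replicate 3 (0.103), syn-HSCT replicate 1 (0.113) or syn-HSCT replicate 2 (0.103). Unc93b1 averaged 43.1 ± 1.63 FPKM in allo-HSCT and 107 ± 6.92 FPKM in syn-HSCT (SD, n = 3 each).

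The oligoadenylate synthetase family split. Of 10 tested genes in the list of this family and RNA decay, 6 rose and 4 fell. Besides Oasl1, Oas1a (1.78-fold), Oas1g (2.06-fold) and Oas2 (1.32-fold) were lower. Oas1c rose 1.95-fold and Oasl2, the close relative of Oasl1, rose 1.44-fold to 3.89 ± 0.277 FPKM in allo-HSCT, against 2.71 ± 0.145 FPKM in syn-HSCT (SD, n = 3 each). Genes of this family are close paralogs, and the sources used here do not give how the authors' counting divided shared reads.

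In the IFIT and IFITM list the 2 families went opposite ways. The membrane proteins Ifitm3, Ifitm2 and Ifitm1, which hinder virus entry, were 2.72-fold, 2.07-fold and 1.40-fold lower. Ifitm3 stood at 105 ± 14.7 FPKM in allo-HSCT and 286 ± 7.03 FPKM in syn-HSCT (SD, n = 3 each). The IFIT genes rose in 3 of 4 tested cases, with Ifit1bl1 2.23-fold, Ifit2 1.41-fold and Ifit3 1.40-fold higher. Ifit3b, a near copy of Ifit3, did not pass (log2 fold change 0.22, limma adjusted p = 0.113). With the gene length trend removed, Ifitm1 no longer passed (limma adjusted p = 0.302).

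Of 17 other tested effector genes, 10 rose and 6 fell, and Daxx did not pass (limma adjusted p = 0.0537). Ifi44l, the paralog of Ifi44, was 2.39-fold lower, at 9.19 ± 2.08 FPKM in allo-HSCT and 22.0 ± 2.06 FPKM in syn-HSCT (SD, n = 3 each). Slfn9 (1.68-fold), Cmpk2 (1.42-fold) and Ifi27l2a (1.36-fold) were lower too, the last no longer so with the gene length trend removed (limma adjusted p = 0.533). The largest rises were those of Epsti1 (2.16-fold), the T cell quiescence and growth gene family members Slfn1 (1.92-fold) and Slfn8 (1.61-fold), and Phf11a (1.64-fold). Epsti1 averaged 69.4 ± 9.999 FPKM in allo-HSCT and 32.04 ± 1.13 FPKM in syn-HSCT (SD, n = 3 each).

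In the list of the ISG15 pathway and PARP genes, 5 of 6 tested genes rose and 1 fell. Dtx3l and Parp14, which take part in ubiquitin and ADP-ribose marking, rose 1.5-fold and 1.47-fold. Uba7, the enzyme that activates ISG15, rose 1.30-fold, whereas Ube2l6, the enzyme that carries it, was 1.38-fold lower, a call lost with the gene length trend removed (limma adjusted p = 0.0774). Both tested feedback inhibitors of cytokine signalling rose, Socs3 1.37-fold and Socs1 1.34-fold. The Socs1 groups overlapped, and Socs1 did not pass without allo-HSCT replicate 2, allo-HSCT replicate 3 or syn-HSCT replicate 2.

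Of 16 tested Trim and IFI200 genes, 13 rose and 3 fell. Of the 13, Trim5, Trim12a, Trim30d and Ifi213 met the filter only through allo-HSCT, and without these 4 genes 9 rose. Trim12a and Trim5 were read at 0 or 1 read in each syn-HSCT library and at 341 to 503 and 155 to 199 reads per library in allo-HSCT. Ifi206 rose 3.26-fold and Trim34a 3.33-fold. Ifi202b, a gene known for very low expression in C57BL/6 mice, was 4.09-fold lower, at 5.41 ± 1.56 FPKM in allo-HSCT and 22.1 ± 1.82 FPKM in syn-HSCT (SD, n = 3 each). Ifi207 (2.56-fold) and Ifi204 (1.51-fold) were lower as well. Both families are clusters of close paralogs that differ between mouse strains, and how well reads of each donor strain matched the authors' reference was not tested.

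**Figure D3:**
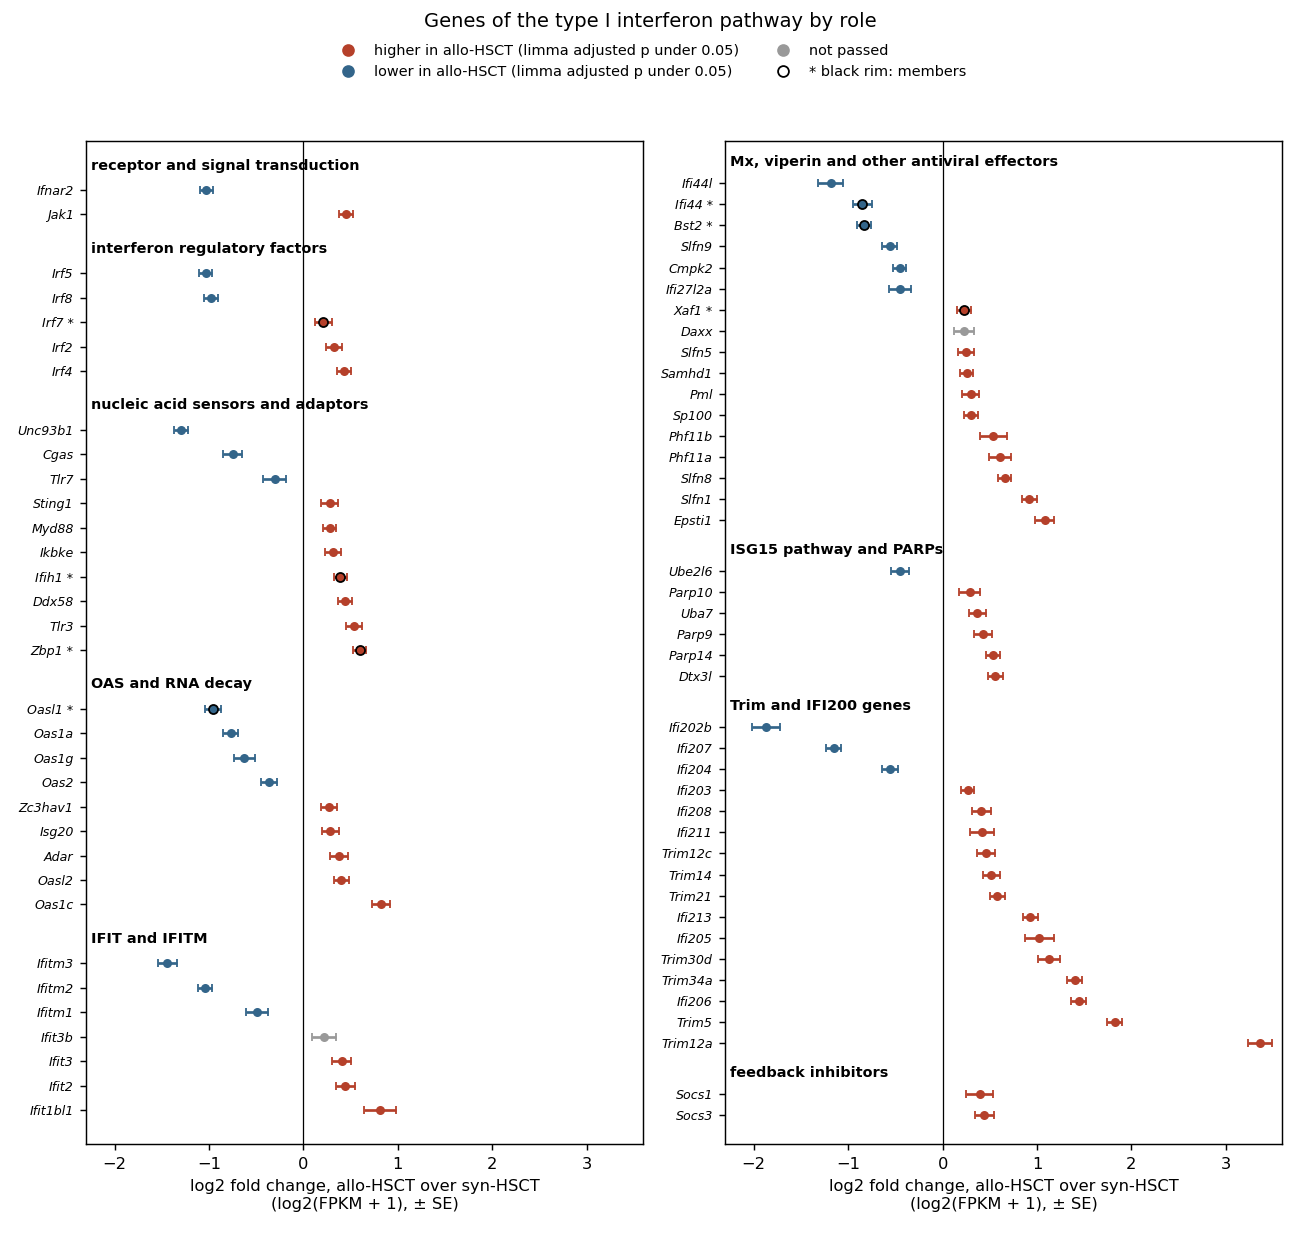
Log2 fold change (allo-HSCT over syn-HSCT, ± SE, on the log2(FPKM + 1) scale) of genes tested in each pathway list, with the 7 members marked by an asterisk and a black rim. Genes higher and lower in allo-HSCT stand side by side in most lists, Irf7 lies close to 0, and the fitted values of Trim12a and Trim5 depend on the pseudocount.

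Genes of the interferon gamma response, among them Ifng and its receptor genes, were less divided. Of 23 tested genes of that response, 22 rose and 1 fell (Ifngr2, 1.5-fold lower), with a median log2 fold change of 0.71. Over all tested genes 47.9% passed as higher and 45.8% as lower, with a median of 0.20. The list was chosen with results of these data known. Ifng itself rose 2.65-fold to 83.5 ± 10.3 FPKM in allo-HSCT, against 31.5 ± 1.83 FPKM in syn-HSCT (SD, n = 3 each). This list shares genes with those of the type I response, and the difference between the lists was not tested.

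Markers of T cells and of other cell types differed between the groups. The marker counts stand beside 47.9% of all tested genes that passed as higher and 45.8% as lower. The labelled cell type was present, with Cd3e at 182 ± 20.5 FPKM in allo-HSCT and 98.5 ± 0.815 FPKM in syn-HSCT (SD, n = 3 each), and all 9 tested T cell markers rose. Of the 13 markers of plasmacytoid dendritic cells other than Bst2 and Irf8, 12 fell and Pacsin1 rose. Of the 12, 7 (Siglech, Cox6a2, Klk1, Spib, Tcf4, Cd300c and Smim5) met the filter only through syn-HSCT, and 5 of the other 6 markers fell. The summed level was 38.7 to 41.2 FPKM in allo-HSCT and 85.5 to 88.8 FPKM in syn-HSCT. Siglech, the defining marker, was at 12 to 23 reads per library in allo-HSCT and 339 to 404 in syn-HSCT. No gene of the list was at 0 in any library.

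Of 12 macrophage and monocyte markers, 10 fell, and Ly6c2 and Vcan rose. Vcan met the filter of 1 FPKM only through allo-HSCT and so could enter the test only as higher. With the gene length trend removed, Cd68 and Vcan no longer passed (limma adjusted p = 0.309 and 0.355). The Ly6c2 groups overlapped, and its call was lost without syn-HSCT replicate 2 (limma adjusted p = 0.0624) or syn-HSCT replicate 3 (0.0547). The list's summed level was 606 to 843 FPKM in allo-HSCT and 2052 to 2663 FPKM in syn-HSCT, with none at 0. Most of the syn-HSCT sum was Lyz2, at 1341 to 1794 FPKM there and 188 to 269 FPKM in allo-HSCT. Bst2, Oasl1 and Ifi44 were lower in allo-HSCT too, as were 45.8% of all tested genes, so a shared direction says little about these cells. Of 6 NK cell markers 4 fell and 2 rose, and their sum was 145 to 204 FPKM in allo-HSCT and 473 to 531 FPKM in syn-HSCT. Most of that sum was Tyrobp, an adaptor gene that myeloid cells express too, and the other 5 markers summed to 31.4 to 39.2 FPKM in allo-HSCT and 54.9 to 55.4 FPKM in syn-HSCT. Of 10 granulocyte markers 5 rose and 5 fell, with a sum of 856.9 to 994.9 FPKM in allo-HSCT and 1654 to 1678 FPKM in syn-HSCT. Mpo, Prtn3, Elane, Ctsg and Cebpe fell, and Ngp, Ltf, Lcn2, Mmp9 and Retnlg rose, so the sum hides opposite directions. Mpo averaged 88.0 FPKM in allo-HSCT and 512 FPKM in syn-HSCT, and Ngp averaged 385 and 234 FPKM. B cell and plasma cell markers, 7 of 8 higher and Xbp1 lower, summed to 290 to 371 FPKM in allo-HSCT and 242 to 255 FPKM in syn-HSCT. Most of that sum was Jchain, at 188 to 264 FPKM in allo-HSCT and 135 to 144 FPKM in syn-HSCT. Conventional dendritic cell markers were divided, with 3 of 7 higher and 3 lower, of which 1 each met the filter through a single group. The part of these cells in the values of the members was not tested.

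**Figure D4:**
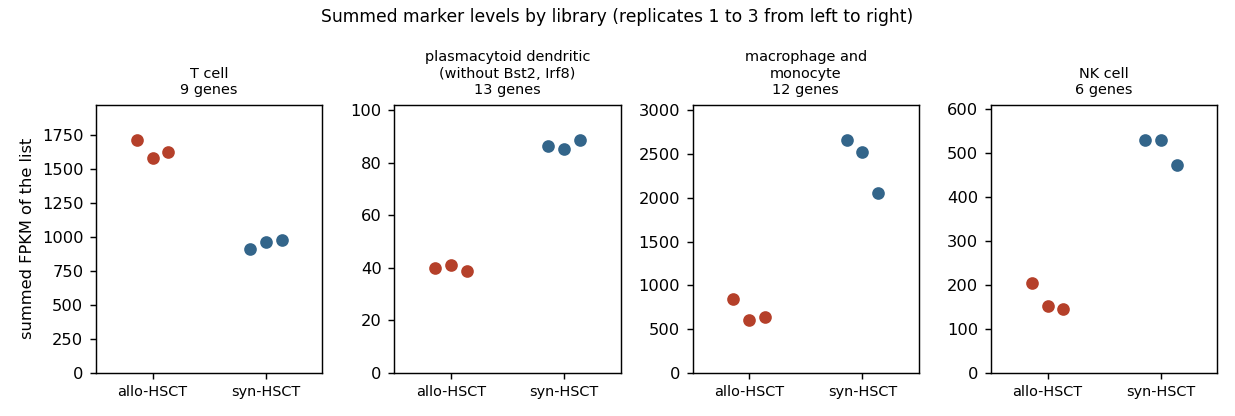
Summed FPKM of 4 marker lists in each library, replicates 1 to 3 from left to right, with axes from 0. The T cell sum is higher in allo-HSCT, and the sums of plasmacytoid dendritic cell, macrophage and monocyte, and NK cell markers are lower there, with no overlap in any of the 4 panels. Most of the NK cell sum is Tyrobp, and most of the macrophage and monocyte sum in syn-HSCT is Lyz2.

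Some genes outside the pathway had profiles over the 6 libraries very close to those of the members that fell. Likeness was the root mean square difference of log2(FPKM + 1), each gene centred on its own mean, among genes at or above the median level. Nearest to Oasl1 were Rnpep (0.033), Ncf4 (0.038) and Wls (0.045). Nearest to Ifi44 were Dstn (0.027), Clec4a1 (0.034) and Sat1 (0.036). Nearest to Bst2 were Dynll1 (0.027), H3f3b (0.031) and Cnpy3 (0.049), of which H3f3b has processed copies that can share its reads. These profiles consist mostly of one step between the groups, and 6 libraries share depth and isolation, so a small difference says little beyond an equal step.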

How the data were processed

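RNA of splenic CD3+ isolates was sequenced in 6 libraries; per the labels' protocols, ribosomal RNA was depleted. Of tools, the submitters' processing notes give limma alone. The sources used here do not give the aligner, counting tool, build, annotation or strand setting. The deposited header names no unit. The authors' values are treated as FPKM because they could be turned back into whole reads, as described next. Genes with 1 transcript in GENCODE M21 gave a whole-number total for each library; 122 to 128 of 984 to 993 such genes per library had whole reads at their annotated length. With lengths then searched for freely, each of the 8468 genes had a whole-base length that gave whole reads in every library, at most 2.0e-04 from a whole number. The totals were 16330845 to 17143498 reads in allo-HSCT and 15642385 to 17524496 in syn-HSCT. None of the 7 recovered gene lengths equals an M21 transcript, so read numbers are estimates from the values, and they cover counting error only.

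A gene was kept where 3 or more libraries reached 1 FPKM, which left 5460. Values were put on the log2(FPKM + 1) scale. All 6 libraries were fitted in limma 3.58.1 under R 4.3.3, using a variance trend and no covariate. The fit was tested on simulated data in which few genes changed. Most genes of this table passed, so that test does not show the error rate here. Log2 fold changes on the log2(FPKM + 1) scale understate the change of low genes, and folds are ratios of mean FPKM. An exact permutation test of 3 against 3 cannot go below p = 0.1. The members and all lists were chosen with earlier results of these data known. All 7 members are named. Pathway lists name up to 4 called genes with the largest change and those against the majority, and other genes named were chosen after their values were seen. Some genes of the lists are counted but not reported here by name. Alternatives changed the pseudocount, filter, scaling, variance prior, weights, block, gene length trend and libraries used.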

Additional observations from a re-analysis of the deposited data

How the results depend on the processing

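Oasl1, Ifi44, Bst2, Zbp1 and Ifih1 kept their direction and call in all 16 alternatives. Their log2 fold changes ranged over -1.13 to -0.82 for Oasl1, -0.95 to -0.78 for Ifi44, -0.86 to -0.43 for Bst2, 0.58 to 0.75 for Zbp1 and 0.28 to 0.47 for Ifih1. Irf7 did not pass with no filter (log2 fold change 0.21, limma adjusted p = 0.0599) or without a variance trend (0.21, limma adjusted p = 0.0514), and the cause was not tested. With the replicate block Irf7 also did not pass (0.21, limma adjusted p = 0.0503). With single libraries left out its log2 fold change was 0.15 to 0.28, and that of Xaf1 was 0.20 to 0.28. The count of members called higher was 2 to 4 in those fits, with fewer samples, and that of members called lower was 3. At a mean of at least 5 FPKM fewer genes were tested, and 1604 of 3595 were called lower over the table, against 2500 of 5460. In the type I interferon lists 44 to 52 genes were called higher and 19 to 23 lower over all alternatives. Ifit3b, which had not passed, was the only list gene to turn direction (-0.0059 with library quality weights). Removing the gene length trend, an alternative chosen after the data were seen like the one that centred values on the middle of the absent ratios, moved the median of all genes by -0.11. The labels do not say that the replicate numbers pair the libraries. Deviations of same-numbered libraries correlated at -0.022, -0.20 and 0.077, and those of unlike-numbered libraries at -0.17 to 0.24. Deviations from means of 3 libraries depend on each other, so these values cannot decide whether the numbers pair them. The block gave 2582 genes higher and 2523 lower. Depth limits Oasl1 most among the members.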
